A study of Mus musculus with 8 samples.

Results

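The Iroquois homeobox genes Irx1, Irx2, Irx3, Irx5 and Irx6 were chosen by name among 22053 rows of a table of protein-coding genes, and 5 of 5 matched a row. Irx1 and Irx2 belong to the IrxA cluster on chromosome 13, and Irx3, Irx5 and Irx6 to the IrxB cluster on chromosome 8. The 8 RNA libraries came from wild-type mice (WT) of postnatal day 10, 4 from candidate vertebral skeletal stem cells of the spine (vSSC) and 4 from long bone skeletal stem cells of femur and tibia (lbSSC). Each group held 2 male and 2 female libraries, and both groups were sorted for CD200 and against CD105, 6C3, Thy, CD45, TER119 and CD31. The labels call the libraries biological replicates without saying how many animals each holds, and a p-value therefore reflects only how far these libraries spread, which may be technical. Levels are in FPKM, a unit that corrects for the length of the transcript and the size of the library, so that genes can be set side by side. A difference is the mean log2(FPKM + 1) of vSSC less that of lbSSC, a scale that understates the change of genes at low FPKM.

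Iroquois homeobox genes encode transcription factors of the TALE class, named for a loop extension within the homeodomain. In mice and humans they lie in clusters on separate chromosomes, and members of a cluster are often expressed in overlapping domains because they share long-range enhancers. In skeletal development Irx3 and Irx5 are known from the early mouse limb bud, where they act in patterning of the proximal and anterior skeleton, and Irx1 and Irx2 from the digits.

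The FPKM of the listed genes summed to 517314 to 571869 per library in vSSC and 460302 to 521489 in lbSSC, and between 13305 and 14849 genes per library were above 0, with the fewest in vSSC replicate 1. Read totals are unknown, so no counting error can be attached to single values. Cd200, the gene of the positive sorting marker, lay at 85.1 to 133.1 FPKM in vSSC and 84.2 to 142.7 in lbSSC. The genes of the 5 negative markers that were matched (Pecam1, Ptprc, Thy1, Enpep and Eng) lay at 1.76 FPKM or less in every library. That ceiling is above the mean over all libraries of each Iroquois member except Irx5. Ptprc lay at 0.331 to 0.949 FPKM in vSSC and 0.0250 to 0.0688 in lbSSC, and Enpep at 0.111 to 0.484 in vSSC and 0.709 to 1.76 in lbSSC. Cartilage genes were abundant in both groups, with Col2a1 at 7443 to 15067 FPKM in vSSC and 10803 to 20002 in lbSSC. In bulk libraries fewer cells expressing a gene and less RNA per cell cannot be told apart.

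On GRCm38, Irx1 lies on chromosome 13 at 71957921 to 71963723 on the minus strand and Irx2 at 72628820 to 72634198 on the plus strand. The IrxB genes lie on chromosome 8, with Irx3 at 91798525 to 91802067 on the minus strand, Irx5 at 92357625 to 92376286 on the plus strand and Irx6 at 92674288 to 92680956 on the plus strand. From the first to the last member the IrxA pair spans 676.3 kb and the IrxB trio 882.4 kb. The library chemistry does not mark the strand. Counted over whole gene spans, Irx3 shares 1653 bases with the antisense gene Irx3os and Irx6 shares 785 bases with the antisense gene Gm45505. Reads that fall where exons of both genes overlap could not be assigned by strand. How much of the shared stretch is exon in both genes was not measured. Irx1, Irx2 and Irx5 overlap no other annotated gene in GENCODE M21. The sequence table held promoter windows of 250 bases before to 50 bases after the start (RefSeq, GRCm38.p6) for 2 of the 5 members, Irx2 and Irx3. They are shown as 1 window from each cluster, since their promoters are the ones that can be set beside the values, with GC boxes (GGGCGG on either strand) in capitals.
Irx2, chr13:72628570-72628869, plus strand: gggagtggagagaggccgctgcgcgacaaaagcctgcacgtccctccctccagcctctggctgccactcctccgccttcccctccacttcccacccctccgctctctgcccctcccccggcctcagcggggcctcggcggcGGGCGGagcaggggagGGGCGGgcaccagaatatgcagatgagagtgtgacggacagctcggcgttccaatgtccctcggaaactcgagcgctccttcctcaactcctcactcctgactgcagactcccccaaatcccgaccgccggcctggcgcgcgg
Irx3, chr8:91801605-91801904, minus strand: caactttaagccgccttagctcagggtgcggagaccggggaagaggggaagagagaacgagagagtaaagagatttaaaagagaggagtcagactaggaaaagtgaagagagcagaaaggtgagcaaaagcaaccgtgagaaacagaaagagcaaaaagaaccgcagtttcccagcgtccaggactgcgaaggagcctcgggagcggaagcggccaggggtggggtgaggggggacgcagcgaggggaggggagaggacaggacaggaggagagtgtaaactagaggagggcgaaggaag
The Irx2 window held 2 GC boxes, 25 CpG dinucleotides and 69% G and C. The Irx3 window held 0 GC boxes, 14 CpG dinucleotides and 56% G and C, and it was cut from a RefSeq start that lies inside the span the expression table gives for Irx3. Of 32851 promoter windows, 35.7% held a GC box, and the median window held 7 CpG dinucleotides. The palindromic Iroquois binding site ACANNTGT, searched on both strands, was found in neither window and in 7.38% of all windows, and TATAAA in neither window and in 13.6%. These matches describe the letters of the windows and not factor binding.

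All members were expressed at low levels, and Irx5 and Irx3 made up most of the family's FPKM at both sites. Irx5, which in humans is mutated in a syndrome with craniofacial and bone defects, was at 2.501, 2.35, 1.496 and 2.79 FPKM in vSSC replicates 1 to 4 and at 2.39, 2.78, 2.36 and 3.25 in lbSSC replicates 1 to 4. The groups overlapped, with vSSC replicate 3 the lowest and lbSSC replicate 4 the highest of all libraries. Irx3, which acts with Irx5 in the limb bud and is also known as a regulator of body weight, was at 1.52, 1.37, 0.750 and 1.02 FPKM in vSSC and at 1.57, 1.41, 1.03 and 1.90 in lbSSC. The same 2 libraries held its lowest and highest values, and its groups overlapped as well.

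The level of neither gene differed between the sites beyond the spread of the libraries. Irx3 averaged 1.16 ± 0.345 FPKM in vSSC libraries and 1.48 ± 0.361 FPKM in lbSSC libraries (SD, n = 4 each), which differ by -0.20 ± 0.18 (SE; 95% interval -0.59 to 0.19; limma, adjusted p = 0.440). Irx5 averaged 2.28 ± 0.556 FPKM in vSSC libraries and 2.70 ± 0.418 FPKM in lbSSC libraries, which differ by -0.18 ± 0.17 (95% interval -0.55 to 0.19; limma, adjusted p = 0.458). With a pseudocount of 0.01, which keeps fold changes of low genes nearly whole, the ratio of vSSC to lbSSC was 0.780 for Irx3 (95% interval 0.469 to 1.297) and 0.834 for Irx5 (0.575 to 1.21). Differences inside these intervals could not be resolved with 4 libraries per site, and equal levels were not shown. These were the 2 members that passed the filter of at least 1 FPKM in at least 4 libraries, and limma called 0 of 2, where it called 23.5% of the 10729 genes tested. At an unadjusted p under 0.05 the count was also 0 of 2, against 38.4% of all tested genes.

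**Figure D1:**
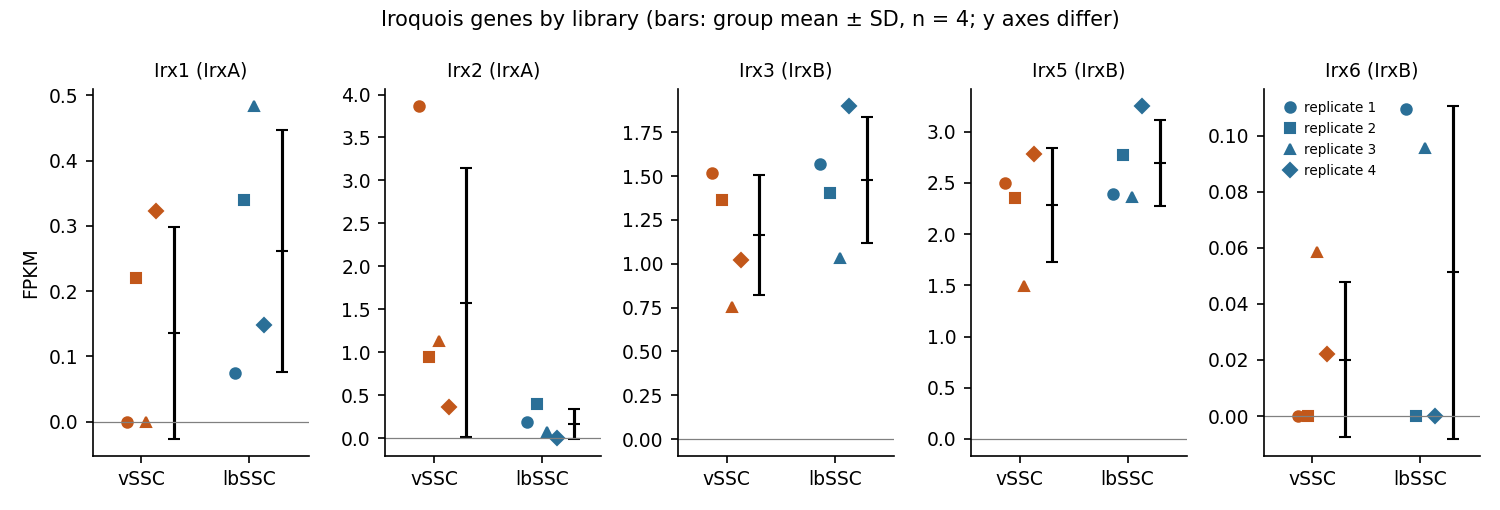
FPKM of each Iroquois gene in the 4 vSSC (orange, left) and 4 lbSSC (blue, right) libraries, with marker shape giving the replicate and black bars the group mean ± SD; the y axes differ between panels. Irx3 and Irx5 overlap between the sites, Irx2 lies at 0.360 to 3.87 in vSSC and 0 to 0.398 in lbSSC, and Irx1 and Irx6 stay under 0.5.

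Irx2, a factor of the IrxA cluster known from developing digits, had the widest range of the family. It was at 3.87, 0.940, 1.13 and 0.360 FPKM in vSSC replicates 1 to 4, and at 0.189, 0.398 and 0.0703 in lbSSC replicates 1 to 3 with lbSSC replicate 4 listed at 0. Of the 4 vSSC libraries, 3 lay above every lbSSC library, and vSSC replicate 4 lay below lbSSC replicate 2. The means were 1.57 ± 1.57 FPKM in vSSC and 0.164 ± 0.174 in lbSSC (SD, n = 4 each). The difference of 0.99 on the log2(FPKM + 1) scale did not pass an exact two-sided permutation test (p = 0.0571, where 4 against 4 allows no p below 0.0286).

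The result for Irx2 depended on the test and on single libraries. Irx2 reached 1 FPKM in 2 libraries, both vSSC, and so failed the filter. With no filter limma gave 0.99 ± 0.35 (95% interval 0.18 to 1.79, unadjusted p = 0.0220, adjusted p = 0.101), in a fit that called 13.5% of 16378 genes. With a filter of 1 FPKM in at least 2 libraries, chosen after the values were seen and met by Irx2 through vSSC alone, the adjusted p was 0.0491, in a fit that called 23% of 11322 genes. Without vSSC replicate 1 the difference was 0.62 (exact permutation test, two-sided, p = 0.0857), and without vSSC replicate 4 it was 1.24 (p = 0.0286, the smallest that 3 against 4 allows).

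Other measures also varied across the libraries, and their part in the values of Irx2 was not tested. Cytosolic ribosomal protein genes, 84 rows, took 21.3%, 19.5%, 21.5% and 18.4% of the FPKM in vSSC replicates 1 to 4 and 18.5%, 17.9%, 15.8% and 15.7% in lbSSC replicates 1 to 4. Among glial markers, the myelin protein gene Mbp had 5.75, 5.95, 2.02 and 5.49 FPKM in vSSC and 0.495, 0.980, 0.835 and 0.543 in lbSSC (1.69 ± 0.26, limma adjusted p = 0.000854). Its groups did not overlap, with vSSC above, as in 15.8% of all tested genes. Mbp met the filter through vSSC alone, so its call is no support. Sox10, a defining factor of glial cells, was above 0 in all 8 libraries, at 0.415 to 1.44 FPKM in vSSC and 0.216 to 0.880 in lbSSC.

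Of the 7 haematopoietic and neutrophil markers 5 were tested and 3 were higher in vSSC, against 14.3% of all tested genes. They were S100a8, S100a9 and Lyz2, while Hbb-bs (-0.46 ± 0.25, limma adjusted p = 0.199) and Mpo (-0.01 ± 0.47, 0.991) were not called. The list's sum of 2655 to 3480 FPKM in vSSC and 2568 to 5574 in lbSSC was mostly the globin gene Hbb-bs. The endothelial list summed to 0.210 to 0.287 FPKM in vSSC and 0.0324 to 0.178 in lbSSC. The muscle list summed to 0.213 to 0.351 FPKM in vSSC and 0.426 to 0.738 in lbSSC, with Myod1 and Myh3 listed at 0 in all 8 libraries. The epithelial list summed to 0.567 to 1.14 FPKM in vSSC and 0.784 to 1.93 in lbSSC, with Krt14 listed at 0 in all 8. Tendon markers summed to 46.7 to 88.2 FPKM in vSSC and 90.3 to 126.5 in lbSSC, a sum carried by Tnmd at 52.1 ± 15.9 FPKM in vSSC and 89.0 ± 16.2 in lbSSC. Of this list 2 of 4 were called lower in vSSC (Tnmd and Kera), against 9.17% of all tested genes, and Scx and Mkx were not called. Kera met the filter through lbSSC alone. Osteoblast markers summed to 1608 to 1874 FPKM in vSSC and 4606 to 6679 in lbSSC, a sum carried by Col1a1 at 723.4 ± 71.5 FPKM in vSSC and 4093 ± 836.0 in lbSSC. The members of that osteoblast list went in both directions, with 1 of 7 called higher in vSSC (Sp7, 0.61 ± 0.12, limma adjusted p = 0.00493), 2 called lower (Col1a1 and Bglap) and a median of 0.06. Of all tested genes 14.3% were called higher and 9.17% lower. The part of these cell types in the differences between the sites was not tested.

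Irx1, the partner of Irx2 in the IrxA cluster, was near the floor of the table. It was listed at 0 in vSSC replicates 1 and 3 and was at 0.219 and 0.323 FPKM in replicates 2 and 4. In lbSSC it was above 0 in all 4 libraries, at 0.0739, 0.339, 0.484 and 0.148. The groups overlapped (difference -0.15, exact permutation test, two-sided, p = 0.314). Both vSSC libraries at 0 were those with the fewest genes above 0, namely 13305 in replicate 1 and 13622 in replicate 3.

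Irx6, known from retinal neurons, was lower still. In vSSC it was listed at 0 in replicates 1 and 2 and at 0.0584 and 0.0221 FPKM in replicates 3 and 4. In lbSSC it was listed at 0 in replicates 2 and 4 and at 0.109 and 0.0956 in replicates 1 and 3. The zeros fell in both groups and the difference of -0.04 did not pass (exact permutation test, two-sided, p = 0.429). The remaining gene of the family, Irx4 of the IrxA cluster, a factor of the ventricular heart muscle, was listed at 0 in all 8 libraries. With no filter limma called 0 of 5 members, against 13.5% of 16378 genes. At an unadjusted p under 0.05 the count was 1 of 5, Irx2, against 29.9% of genes in that fit. The groups separated in 0 of 5 members. They separated in 25.8% of the 10729 genes past the filter, a share over a set without Irx1, Irx2 and Irx6, which failed it.

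Over all libraries the order of mean levels was Irx5 at 2.49 FPKM, Irx3 at 1.32, Irx2 at 0.870, Irx1 at 0.199 and Irx6 at 0.0357. Irx5 lay above Irx3 in 8 of 8 libraries, by 0.59 ± 0.16 on the log2(FPKM + 1) scale (SD, n = 8; exact sign-flip permutation test, two-sided, p = 0.00781, adjusted over 4 neighbouring pairs 0.0313). The other neighbours did not differ beyond their spread: Irx3 and Irx2 (adjusted exact p = 0.177), Irx2 and Irx1 (0.188) and Irx1 and Irx6 (0.125). Irx3 lay above Irx2 in 2 of 4 vSSC and in 4 of 4 lbSSC libraries, and Irx2 lay above Irx1 in 4 of 4 vSSC and 2 of 4 lbSSC libraries. The mean FPKM of Irx5 exceeded that of 45.8% of the genes with any value above 0, and that of Irx6 exceeded 10.3%.

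The proportion between Irx3 and Irx5 did not separate the sites. The ratio of Irx3 to Irx5 was 0.607, 0.581, 0.502 and 0.367 in vSSC replicates 1 to 4 and 0.655, 0.506, 0.438 and 0.584 in lbSSC replicates 1 to 4. The groups overlapped, at 0.514 ± 0.108 in vSSC and 0.546 ± 0.0944 in lbSSC (SD, n = 4 each). Across the 8 libraries the log2(FPKM + 1) values of both genes had a Pearson r of 0.747 (exact permutation p = 0.0330) and a Spearman rho of 0.524 (exact permutation p = 0.197). Without the 2 libraries farthest from the median of Irx3, vSSC replicate 3 and lbSSC replicate 4, r was -0.22 (n = 6, exact permutation p = 0.724), so the pooled relation rested on those libraries, although leaving out the extremes of Irx3 also narrows its range. For deviations from the group means over all 8 libraries r was 0.69, given as a description. This was the only correlation between members that was tested.

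Compared by cluster, the IrxA genes held a larger part of the family's FPKM in vSSC, carried by Irx2, and the IrxB genes most of it in both groups. IrxA summed to 3.87, 1.16, 1.13 and 0.684 FPKM in vSSC replicates 1 to 4 and to 0.263, 0.738, 0.554 and 0.148 in lbSSC replicates 1 to 4, with an overlap between vSSC replicate 4 and lbSSC replicate 2. IrxB summed to 4.02, 3.72, 2.30 and 3.83 FPKM in vSSC and to 4.07, 4.18, 3.49 and 5.16 in lbSSC, and these values overlapped as well. IrxA therefore made up 15.1% to 49.1% of the family in vSSC and 2.80% to 14.995% in lbSSC, ranges that lay next to each other. How often such shares separate by site among other genes was not computed, and Irx1 and Irx2 each overlapped between the sites. The 2 IrxA members differed in direction, since Irx2 was higher on average in vSSC and Irx1 lower, with neither passing a test. The 3 IrxB members were each lower on average in vSSC, with none passing.

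**Figure D2:**
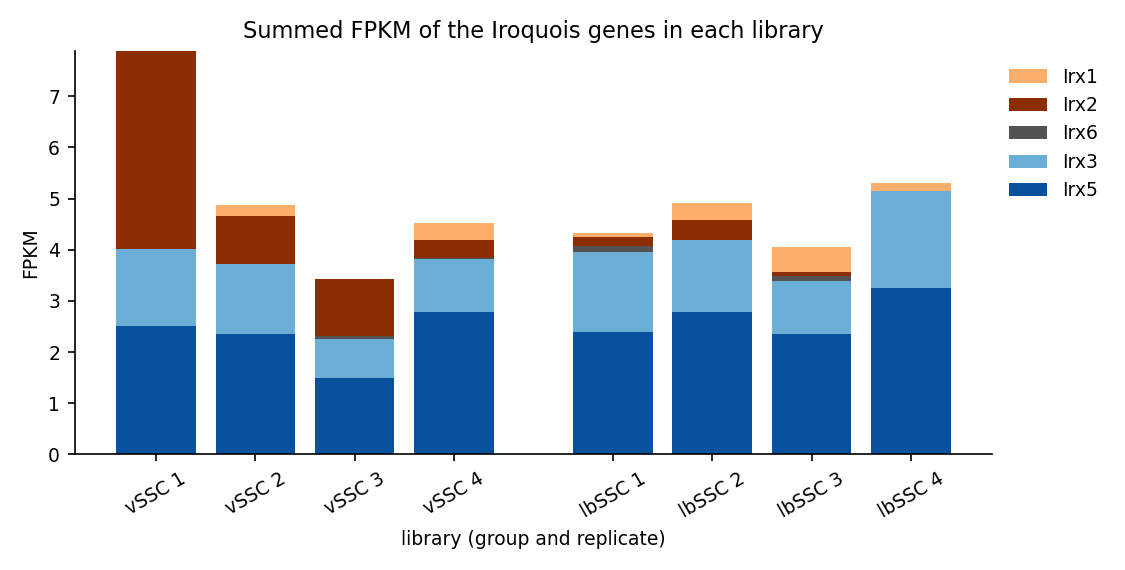
FPKM of the 5 Iroquois genes stacked for each library, with vSSC replicates on the left and lbSSC replicates on the right; blue shades and grey are IrxB genes and orange and brown are IrxA genes. Irx5 and Irx3 form the base of every bar, and Irx2 adds 3.87 FPKM in vSSC replicate 1 and 0.398 or less in lbSSC.

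No difference between the sexes passed the test in Irx3 or Irx5. With site as a covariate, Irx3 was 0.20 ± 0.17 higher in males (mean log2(FPKM + 1) of 1.3 in males and 1.096 in females; limma, adjusted p = 0.712). Irx5 differed by 0.04 ± 0.17 (1.81 in males and 1.77 in females; limma, adjusted p = 0.950), and this sign turned under each of the 3 other scalings. Limma called 5 of 10729 genes between the sexes, 0.0466%, and neither Irx3 nor Irx5 was among them. Irx1, Irx2 and Irx6 failed the filter and were not tested for sex. Their mean log2(FPKM + 1) in males and females was 0.203 and 0.293 for Irx1, 0.993 and 0.408 for Irx2, and 0.0374 and 0.0613 for Irx6. The interaction of site and sex was 0.34 ± 0.34 for Irx3 and 0.24 ± 0.36 for Irx5 (limma, adjusted p = 0.981 for each). It was called in 0 of 10729 genes, 0%, with 405 at an unadjusted p under 0.05.

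The genes that lie beside the clusters also stayed uncalled. Distance was taken from the spans Irx1 to Irx2 and Irx3 to Irx6, without Irx4. Within 1 Mb of either span the table held 26 further rows, of which 11 were tested. Limma called 0 of 11, with 2 at an unadjusted p under 0.05, against 23.5% of all tested genes. Beside IrxA, all further rows lay beyond Irx4 and none on the far side of Irx1. Of these rows 4 were tested, and all 4 estimates lay above 0, at 0.09 to 0.39. Mrpl36, a mitochondrial ribosomal protein, had the smallest p of these, at 46.0 ± 6.28 FPKM in vSSC and 35.1 ± 7.61 in lbSSC (0.39 ± 0.15, limma adjusted p = 0.0842). It was called without vSSC replicate 4, without lbSSC replicate 1 and with the replicate number as a block, and its adjusted p ran from 0.0224 to 0.408 over 16 alternatives.

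Beside IrxB, 7 genes were tested, with estimates from -0.33 to 0.29. Fto, an RNA demethylase whose introns hold enhancers that contact Irx3 and Irx5, lay at 48.1 ± 3.32 FPKM in vSSC and 49.2 ± 2.45 in lbSSC (-0.03 ± 0.10, 95% interval -0.25 to 0.18; limma, adjusted p = 0.818). Its mean level was thus far above that of Irx3 and of Irx5 at both sites. It was called as lower after quantile normalization (adjusted p = 0.0435) and in none of 15 other alternatives. Rpgrip1l, a ciliary gene next to Fto, lay at 0.125 to 0.774 FPKM in vSSC and 0.538 to 1.19 in lbSSC and failed the filter. Mmp2, a gelatinase on the far side of Irx6, lay at 205.9 ± 42.4 FPKM in vSSC and 256.6 ± 29.1 in lbSSC (-0.33 ± 0.15, limma adjusted p = 0.125), and it was called in 1 of 16 alternatives, without vSSC replicate 4. In 1 of the 11 tested neighbours, Lpcat2, the groups did not overlap, with vSSC above, against 15.8% of all tested genes.

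**Figure D3:**
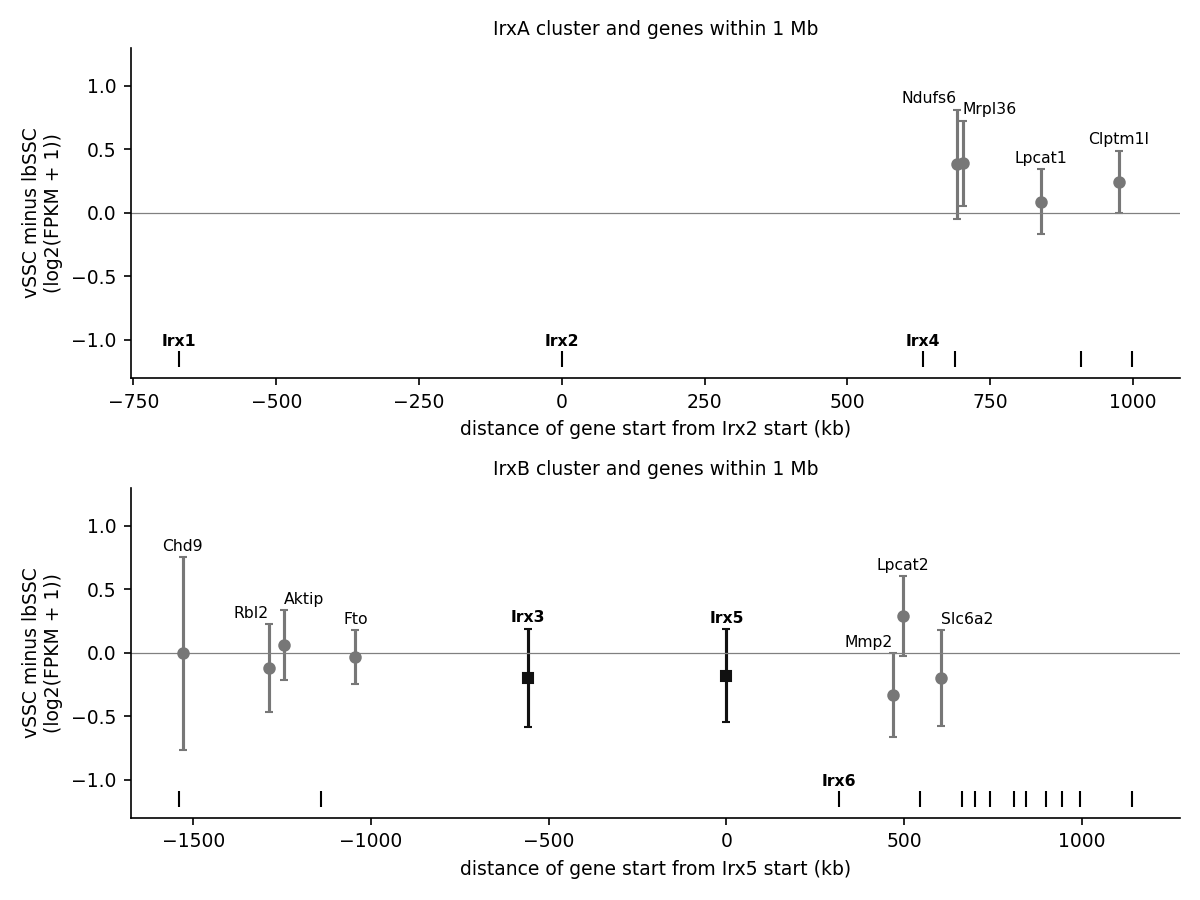
Site difference (vSSC minus lbSSC, log2(FPKM + 1)) with its 95% interval for tested genes within 1 Mb of the spans Irx1 to Irx2 (IrxA, top) and Irx3 to Irx6 (IrxB, bottom). Genes are placed by the distance of their lower coordinate from that of Irx2 or Irx5 in kb. Squares are members, circles neighbours, and ticks at the bottom untested genes. The estimates of Irx3 and Irx5 lie at -0.20 and -0.18 among neighbours between -0.33 and 0.29.

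Among other TALE homeobox genes, which bind DNA beside Hox proteins or repress transcription, 1 of 11 tested was lower in vSSC and 0 were higher, against 9.17% and 14.3% of all genes tested. The list's median was -0.07 and that of all genes 0.08, and the list's median turned to 0.00055 after quantile normalization. With 1 library left out it ran from -0.13 without vSSC replicate 3 to -0.01 without vSSC replicate 4. The called gene was Meis2, a cofactor that marks the proximal limb, at 1.44, 0.796, 1.07 and 1.05 FPKM in vSSC and 2.09, 2.35, 2.70 and 3.95 in lbSSC. Its groups did not overlap, with vSSC below, as in 9.99% of all tested genes (-0.84 ± 0.18, limma adjusted p = 0.00769), and it was called in 16 of 16 alternatives. The next by p were Tgif2, a repressor of TGF-beta targets (-0.28 ± 0.15, limma adjusted p = 0.177), Pknox2 (0.47 ± 0.28, 0.230) and Meis1 (0.28 ± 0.21, 0.359). Mkx, an Iroquois-related tendon factor known as Mohawk, lay at 3.82 to 9.02 FPKM in vSSC and 4.56 to 6.68 in lbSSC and was not called (0.02 ± 0.23, limma adjusted p = 0.956).

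**Figure D4:**
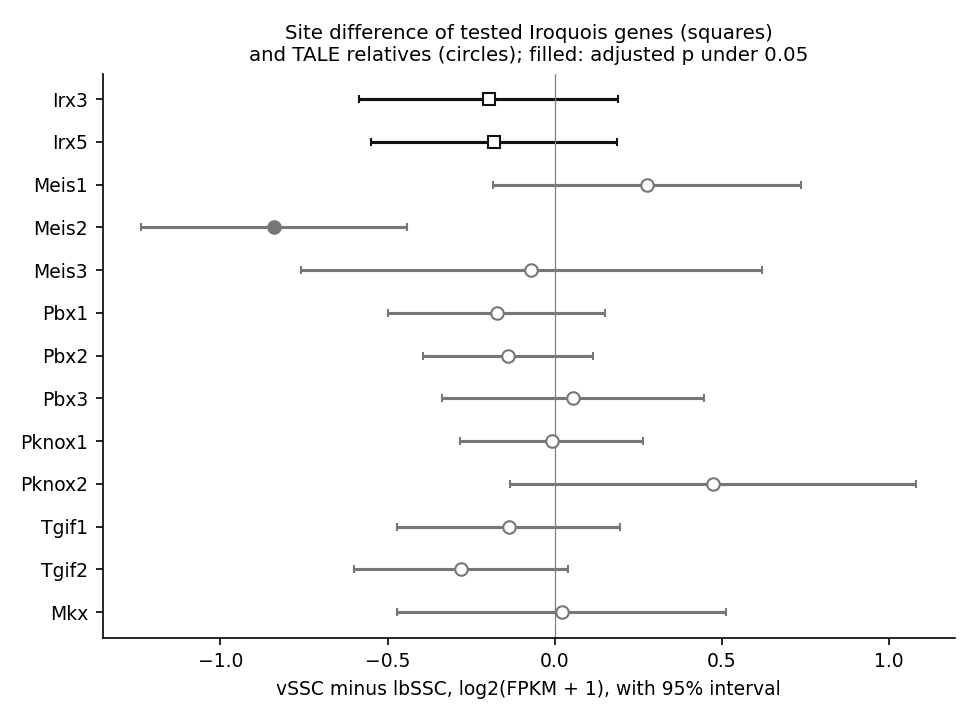
Site difference (vSSC minus lbSSC, log2(FPKM + 1)) with its 95% interval for Irx3 and Irx5 (squares) and 11 tested TALE relatives (circles); filled symbols have a limma adjusted p under 0.05. Meis2 at -0.84 is filled, and the intervals of Irx3 and Irx5 include 0.

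Of genes linked to Iroquois factors in limb and skeleton, 13 of 19 were tested, and 2 were higher and 5 lower in vSSC, against 14.3% and 9.17% of all genes tested. The list's median was -0.41, against 0.08 for all genes. This list and the other gene lists were chosen with earlier results of these data known, so their counts and medians are given as descriptions. Leaving out vSSC replicate 1 moved the median to -0.25, leaving out vSSC replicate 3 to -0.26, and leaving out both to -0.08. With lbSSC replicate 4 left out it was -0.23, and 3 genes were called lower. Trps1, a GATA-type repressor of chondrocytes that interacts with IRX5 in humans, had 11.6, 10.9, 9.30 and 14.4 FPKM in vSSC and 16.4, 15.4, 18.4 and 20.5 in lbSSC. Every vSSC library lay below every lbSSC library, as in 9.99% of all tested genes (-0.58 ± 0.15, limma adjusted p = 0.0162). The call was lost without lbSSC replicate 4 and without both vSSC replicates 1 and 3, and the adjusted p ran from 0.00653 to 0.117 over 16 alternatives. Cxcl12, a chemokine that IRX5 represses in craniofacial development of the frog, was lower in vSSC (-1.42 ± 0.22, limma adjusted p = 0.00108).

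Of the Hedgehog genes of that list Ihh, Ptch1, Gli1, Gli2 and Gli3 were tested, and 2 were called higher and 1 lower in vSSC. Of all genes tested, 14.3% were called higher and 9.17% lower. The ligand Ihh (1.51 ± 0.16, limma adjusted p = 6.93e-05) and the receptor Ptch1, at 55.8, 61.3, 47.2 and 84.7 FPKM in vSSC and 37.6, 35.2, 35.4 and 36.5 in lbSSC (0.73 ± 0.15, limma adjusted p = 0.00642), were higher in vSSC. Gli2, a transcription factor of the pathway, was lower, at 0.594, 1.22, 0.524 and 1.94 FPKM in vSSC and 1.49, 2.23, 3.00 and 3.16 in lbSSC (-0.77 ± 0.24, limma adjusted p = 0.0390), with overlapping groups, and its call held in 8 of 16 alternatives. Gli3, the main repressor of the pathway in the limb bud, lay at 0.905 to 2.68 FPKM in vSSC and 1.81 to 2.94 in lbSSC and was not called (limma adjusted p = 0.147). Gli1, a transcription factor induced by the pathway, was not called either (-0.20 ± 0.17, limma adjusted p = 0.422). Shh was listed at 0 in 7 of 8 libraries. Bmp4 (-1.70 ± 0.16, limma adjusted p = 3.94e-05) and Col10a1 (-1.25 ± 0.15, 0.000176) were the further called genes, both lower. Ptch1, Trps1, Gli1, Gli2 and Gli3 were named after their values were seen. The call of Ptch1 was lost after quantile normalization (adjusted p = 0.0566).

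Adipogenic genes, on which Irx3 and Irx5 act in fat cells, were mostly too low to test. Of 9 listed, 4 were tested and 3 were lower in vSSC, against 9.17% of all genes tested, with a median of -0.88 against 0.08 for all genes. Adipoq, the adipocyte hormone adiponectin, lay at 0.0764 to 1.17 FPKM in vSSC and 2.08 to 5.76 in lbSSC (-1.58 ± 0.28, limma adjusted p = 0.00234). Adipoq met the filter through lbSSC, the group where it was high, so its call and its part in the count and median are no support. Cebpb, an early adipogenic factor, was at 11.3 to 30.003 FPKM in vSSC and 32.6 to 58.9 in lbSSC (-1.17 ± 0.28, limma adjusted p = 0.0122), and this call was lost without both vSSC replicates 1 and 3 (adjusted p = 0.103). Lpl, a lipase, was called (-0.60 ± 0.18, limma adjusted p = 0.0322) but lost its call in 8 of 16 alternatives, and Cebpa was not called (0.38 ± 0.17, 0.125). Ucp1 was listed at 0 in all 8 libraries. The 4 adipocyte markers summed to 0.0764 to 2.27 FPKM in vSSC and 2.78 to 11.1 in lbSSC, and their part in these differences was not tested. Of 8 tested Wnt genes linked to bone, 1 was higher and 2 lower in vSSC, against 14.3% and 9.17% of all genes tested. The median was -0.14 against 0.08 for all genes, and it ran from -0.22 to -0.05 with 1 library left out, at lbSSC replicates 4 and 1. The called genes were Wnt11 (0.72 ± 0.21, limma adjusted p = 0.0296), Tcf7 (-0.55 ± 0.15, 0.0225) and Sfrp1 (-3.35 ± 0.15, 9.53e-08), and Ctnnb1 came next (0.28 ± 0.10, 0.0628). The calls of Wnt11 and Tcf7 each held in 12 of 16 alternatives.

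The tested genes whose pattern was most like that of Irx3 over the 8 libraries were AA415398 (Pearson r = 0.936), Isg15, an interferon-induced ubiquitin-like protein (0.928), and Fam110b (0.920). For Irx5 they were Zscan26 (0.958), the phosphatase Ptprd (0.956) and the methionine synthase Mtr (0.934). None of these 6 genes was called between the sites, with limma adjusted p from 0.123 to 0.641. For Irx2, which was not tested and for which the search was added after its values were seen, they were Lactb (0.986), the mitochondrial ribosomal protein Mrps12 (0.985) and Txndc9 (0.983). These 3 genes had their highest value in vSSC replicate 1, at 4.18, 62.8 and 48.4 FPKM, and Irx2 did too. Txndc9 was called as higher in vSSC (0.67 ± 0.20, limma adjusted p = 0.0315). The correlations are the highest of 10729 correlations each and share libraries, so they are given as descriptions. These genes were picked for their likeness to a member over the same libraries. Whether they were called between the sites therefore follows in part from that choice and is no support.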

How the data were processed

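Group, replicate and sex came from the labels. Per the labels' protocols, the SMART-Seq v4 kit made cDNA and Nextera XT the libraries. The submitters' processing notes name Cufflinks 2.1.1, STAR 2.5.2, bcl2fastq 2.19 and build GRCm38, without settings. The deposited FPKM values, made by the authors, hold 22053 rows, and no pair of libraries was identical. Low values were searched for single-fragment steps. At best 47.5% to 66.7% per library lay within 0.1 of a step, where the tolerance alone gives 20%. These shares are the best over many step sizes and fragment lengths tried, so they settle no step, and depth is unknown. The 1 added to each start makes spans equal those of GENCODE M21.

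Values were transformed to log2(FPKM + 1). The 10729 genes with at least 1 FPKM in at least 4 libraries were fitted with limma 3.58.1 in R 4.3.3 (empirical Bayes, variance trend), with calls where the Benjamini-Hochberg p was under 0.05, and checked on simulated data. Members below the filter were tested by exact permutation. Named genes were the 5 members, up to 4 genes with the smallest p per list, called neighbours with Fto and Rpgrip1l, and the 3 genes most like each tested member; Mkx, Mrpl36, Mmp2, Lpcat2 and markers were added after their values were seen. Members and lists were chosen with earlier results of these data known. Alternatives covered pseudocounts, filters, scalings, variance models, sex, the replicate block and libraries left out. A listed symbol that matched no row, Tubb3 or Acta1, was not analysed here. Some marker genes and the summed level of their list are not reported here.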

Additional observations from a re-analysis of the deposited data

How the results depend on the processing

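The site differences of Irx3 and Irx5 kept their sign and stayed uncalled in 20 of 20 alternatives each, with values from -0.36 to -0.10 and -0.29 to -0.05. Leaving out single libraries gave -0.29 to -0.10 for Irx3 and -0.25 to -0.05 for Irx5, -0.23 to -0.07 for Irx1, -0.07 to -0.02 for Irx6 and 0.62 to 1.24 for Irx2. Pseudocounts of 0.1 and 0.01 gave 2.47 and 3.63 for Irx2, -0.76 and -2.06 for Irx1, and -0.27 and -0.63 for Irx6, since the scale spreads low values. Irx1 and Irx6 stayed uncalled in 15 of 15 alternatives, and Irx1 turned sign without both vSSC replicates 1 and 3 (0.02). Irx2 passed after quantile normalization (1.05, exact permutation p = 0.0286), without vSSC replicate 4 and with a filter added after the values were seen, which Irx2 meets through vSSC alone (0.99, limma adjusted p = 0.0491), so that this last call is no support; the cause was not tested. The number of genes called was 2518, from 1534 to 2991 with a library left out and 1095 without both vSSC replicates 1 and 3, an alternative added later, with fewer samples in the fit. Called genes were higher in vSSC in 60.9% of cases as deposited, in 42.4% with every library at one sum, in 49.4% with quantiles equalized, in 49.5% with median-of-ratios factors, 51.8% without a filter and 69.7% at a minimum of 5 FPKM. The median of all genes was 0.08 as deposited and -0.04 after rescaling. The mean ratio of IrxA to IrxB was 0.486 in vSSC (0.327 to 0.588 with a library left out) and 0.107 in lbSSC (0.0841 to 0.133). For male minus female, leaving out a library gave 0.13 to 0.34 for Irx3 and -0.11 to 0.14 for Irx5, and for the interaction 0.09 to 0.60 and -0.06 to 0.54, none called. Same-numbered libraries shared a number and the sex, and no label pairs them. Their deviations correlated at 0.257, -0.088, -0.064 and 0.435. With the replicate block Irx3 (adjusted p = 0.423) and Irx5 (0.425) stayed uncalled and 3194 genes were called. At a minimum of 5 FPKM no member was tested. With values this low and depth unknown, a listed 0 does not show absence.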
